A study of Mus musculus with 8 samples.

Results

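The transcripts of the mitochondrial genome were followed through the last step of oocyte maturation in mice with and without BAF250a. The set comprises the 37 genes of the mitochondrial chromosome, taken as every gene entry whose symbol starts with mt-, out of 54838 gene entries in the count table. It holds 13 mRNAs, 2 rRNAs and 22 tRNAs. The table covers 8 libraries of total RNA from C57BL/6 mouse oocytes, each made from 5 to 10 oocytes, with 2 libraries in each of 4 groups. Knockout oocytes (genotype BAF250aGKO) lacked BAF250a, the ARID subunit of the BAF chromatin remodelling complex encoded by the nuclear gene Arid1a, through Gdf9-cre, a recombinase active in oocytes from early follicle growth onward. Control oocytes are labelled wildtype. The groups were knockout MII, control MII, knockout GV and control GV, where GV is the fully grown oocyte with its nucleus (germinal vesicle) intact and MII is the mature egg arrested in metaphase of the second meiotic division. The labels give neither the age of the animals nor whether 2 libraries of a group came from different animals, so the p-values refer to a spread between libraries that may be only technical.

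Mammalian mitochondrial DNA is a small circle read from both strands into long precursor RNAs. The tRNAs lie between most of the mRNAs and rRNAs, and cutting out the tRNAs releases most of the other transcripts, most of which then receive short poly(A) tails. The mRNAs encode core subunits of respiratory complexes I, III and IV and of ATP synthase, and all other parts of the machinery, including the RNA polymerase, come from nuclear genes. Oocytes carry a very large stock of mitochondria, and the embryo inherits its mitochondrial DNA from this stock. In the mouse chromosome (mm10, GENCODE M21) 28 of the 37 genes lie on the plus strand and 9 on the minus strand, namely mt-Nd6, a complex I subunit, and 8 tRNAs. Complex I accounts for 7 mRNAs, complex IV for 3, ATP synthase for 2 and complex III for 1.

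Some members share their sequence with another gene, and the following bases show how closely, because this decides which values can be read at face value. All sequences are the mm10 reference transcripts of GENCODE M21, written 5′ to 3′ on the strand of the transcript. The coding regions of mt-Atp8 and mt-Atp6, both subunits of ATP synthase, overlap by 43 bases at chrM:7927-7969, and reads in these bases match both genes. The counting set 3.45% to 4.23% of reads aside as ambiguous, depending on the library. Whether reads of these bases were among them was not tested. The capitals mark the start codon of mt-Atp6 and the stop codon of mt-Atp8.
mt-Atp8 and mt-Atp6: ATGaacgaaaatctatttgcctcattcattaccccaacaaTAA
mt-Co2, which encodes a subunit of complex IV and is often used as a marker of the mitochondrial genome, has an identical nuclear copy. Over the 681 bases compared, mt-Co2 and the pseudogene Gm28661 differed at 0 positions. The 80 bases below come from chrM:7313-7392 (plus strand) and chr1:24615186-24615265 (minus strand).
mt-Co2: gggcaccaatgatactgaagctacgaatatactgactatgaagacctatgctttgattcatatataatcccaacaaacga
Gm28661: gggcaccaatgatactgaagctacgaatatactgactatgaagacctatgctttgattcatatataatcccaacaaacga
An older copy can be told apart. The pseudogene Gm13340 matches mt-Co1, the catalytic subunit of complex IV, with 37 differences over 1545 bases, and 3 of them (in capitals) fall in the 80 bases from chrM:5341-5420 (plus strand) and chr2:22589555-22589634 (minus strand).
mt-Co1: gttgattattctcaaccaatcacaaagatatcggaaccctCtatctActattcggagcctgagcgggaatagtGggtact
Gm13340: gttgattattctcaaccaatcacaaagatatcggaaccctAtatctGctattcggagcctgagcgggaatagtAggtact
The 2 tRNAs that passed the filter on low counts are the minus-strand genes for proline and cysteine, mt-Tp at chrM:15356-15422 and mt-Tc at chrM:5192-5257. They are short enough for a sequenced fragment to span the whole gene.
mt-Tp: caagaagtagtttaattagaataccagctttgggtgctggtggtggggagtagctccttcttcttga
mt-Tc: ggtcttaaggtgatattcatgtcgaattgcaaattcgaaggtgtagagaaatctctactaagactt

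In all, 11 annotated nuclear pseudogenes matched the mitochondrial genome at 95% identity or more over at least 50 bases. Of these, 7 lie side by side on chromosome 1 between 24611535 and 24616197, 3 lie on chromosome 2 and 1 on chromosome 13. Together they held 245932 reads over the 8 libraries. Gm28661 held 86160, and mt-Co2 itself held far fewer, with 1018 and 1400 reads in knockout MII, 2154 and 2683 in control MII, 44 and 49 in knockout GV, and 51 and 28 in control GV. Gm28661 had 12041 and 23958 reads in knockout MII, 20042 and 28310 in control MII, 365 and 398 in knockout GV, and 619 and 427 in control GV. In every library, then, the identical copy held more reads than mt-Co2. The next copies by read number were Gm10925 (matching mt-Atp6, 55770 reads), Gm28437 (matching mt-Co3, 38637 reads) and Gm29216 (matching mt-Co1, 31782 reads).

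The share of a member's 50-base windows that also occur in a nuclear transcript was 100% for mt-Co2, 99.9% for mt-Co3, 99.5% for mt-Atp6, 98.8% for mt-Nd4l and 98.0% for mt-Nd3. It was 62.2% for mt-Nd4, 51.1% for mt-Co1, 8.19% for mt-Nd2, 7.61% for mt-Nd5 and 1.04% for mt-Rnr2, and 0% for mt-Nd1, mt-Cytb, mt-Nd6, mt-Atp8 and mt-Rnr1. The 5 mRNAs above 95%, a limit chosen after their values were seen, held 21346 of 5458670 mRNA reads over all libraries (0.391%). Per length, in reads per kilobase and per 1000000 reads in genes (RPKM), these 5 lay between 1.63 and 71.0 in knockout MII and between 6.86 and 178 in control MII. The other mRNAs, with mt-Atp8 left out, lay between 289 and 10548 in knockout MII and between 775 and 16528 in control MII. Only with mt-Atp8 left out did the ranges not overlap. At 0% of shared windows, mt-Atp8 stood at 5.74 and 5.78 RPKM in knockout MII and 9.80 and 13.7 in control MII. It thus lay within the range of these 5, so a low level per length was not limited to them. With the reads of the nuclear copies added, the 5 reached 13.7 to 1308 RPKM in knockout MII and 50.7 to 1593 in control MII. The values of these 5 mRNAs are uncertain, and their low level per length is given here only as what the table holds. The share of reads that the counting set aside as not uniquely aligned was 7.82% and 8.34% in knockout MII, 10.3% and 11.3% in control MII, 13.03% and 11.8% in knockout GV, and 12.2% and 11.4% in control GV; whether such reads came from these members was not tested.

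The depth was 33289150 and 28846136 reads in genes in knockout MII, 26005880 and 29740748 in control MII, 22686587 and 22388567 in knockout GV, and 20913886 and 19587421 in control GV. Arid1a lay between 19.97 and 33.3 counts per 1000000 reads in genes (CPM) in knockout MII, 1316 and 1617 in control MII, 3.79 and 13.9 in knockout GV, and 391 and 558 in control GV. All 10 oocyte markers had reads in all libraries, and their sum lay between 18982 and 22020 CPM in knockout MII, 19321 and 20496 in control MII, 36916 and 37994 in knockout GV, and 35088 and 41586 in control GV. The 15 granulosa and cumulus cell markers summed to 102 to 127 CPM in knockout MII, 136 to 164 in control MII, 65.9 to 86.0 in knockout GV and 126 to 157 in control GV. Between 2 and 9 of the 15 were at 0 in a library, Fshr, the FSH receptor of granulosa cells, in all 4 MII libraries. The part of these markers in the results below was not tested. The 9 blood and immune markers summed to 3.67 to 3.72 CPM in knockout MII, 6.08 to 52.5 in control MII, 1.59 to 2.23 in knockout GV and 1.07 to 2.82 in control GV, and 5 to 8 of the 9 were at 0 in a library. Ptprc, the general marker of white blood cells, and Lyz2, a myeloid marker, were at 0 in all libraries, while Cd52, Cd68, Cd74 and Tyrobp had reads in control MII library b, the library with 52.5 CPM.

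Mitochondrial transcripts took a far larger share of the reads in MII than in GV oocytes of both genotypes. All 37 genes together held 3.72% ± 0.975 of the reads in genes in knockout MII, 6.48% ± 0.637 in control MII, 0.314% ± 0.0921 in knockout GV and 0.276% ± 0.241 in control GV (mean ± SD, n = 2 each). The mean share in MII over that in GV was 11.8 in knockout and 23.5 in control oocytes. Since each library is a pool of oocytes read to a set depth, more mitochondrial RNA per oocyte and less of the other RNAs cannot be told apart from such shares.

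The mRNAs carried most of this share. They held 2.49% and 3.69% of reads in knockout MII, 5.54% and 6.39% in control MII, 0.199% and 0.333% in knockout GV, and 0.416% and 0.0853% in control GV. The 2 control GV libraries stood far apart, library 2 being the lowest of the 8 and library 1 the highest of the GV libraries. The rRNAs, which form the small and large subunits of the mitochondrial ribosome, held 0.537% and 0.711% in knockout MII, 0.491% and 0.539% in control MII, 0.0494% and 0.0464% in knockout GV, and 0.0296% and 0.0199% in control GV. For the rRNAs, unlike the mRNAs, the knockout GV libraries lay above the control GV libraries and the MII libraries of both genotypes overlapped. The tRNAs held 449 and 482 reads in knockout MII, 610 and 696 in control MII, 27 and 17 in knockout GV, and 22 and 4 in control GV.

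**Figure D1:**
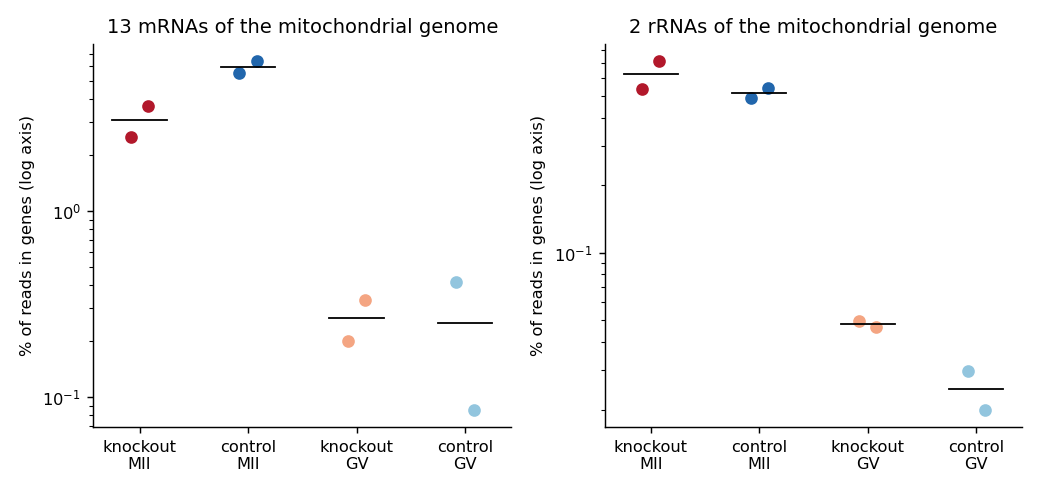
Share of reads in genes that fell on the mitochondrial mRNAs (left) and rRNAs (right), in percent on log axes. Points are libraries and lines are group means; the control MII libraries have the highest mRNA shares (5.54% and 6.39%), and the control GV libraries have the lowest rRNA shares (0.0296% and 0.0199%).

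By strand of the gene, the plus-strand genes held between 99.3% and 99.7% of the mitochondrial reads in every library. The minus-strand genes held 0.537% and 0.408% in knockout MII, 0.705% and 0.713% in control MII, 0.275% and 0.484% in knockout GV, and 0.635% and 0.417% in control GV. Whether the counting used the strand of the reads is not given, so these shares may mix reads of both strands. By complex, the 7 complex I mRNAs held 48.5% and 48.4% of mitochondrial reads in knockout MII, 51.3% and 51.8% in control MII, 51.2% and 54.2% in knockout GV, and 58.2% and 43.0% in control GV. Complex III, that is mt-Cytb alone, held 22.4% and 20.8% in knockout MII, 29.6% and 27.3% in control MII, 15.8% and 19.3% in knockout GV, and 24.4% and 19.2% in control GV. The complex III share was therefore higher in control MII than in any other library. Complex IV held between 10.6% and 18.8% over all libraries; knockout and control overlapped at MII and at GV, while control MII lay below knockout GV. ATP synthase mRNAs held at most 0.179%, and both of them share sequence as described above.

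Per length, the order of the members was similar at both stages. In knockout MII it ran mt-Nd1, mt-Cytb, mt-Nd4, mt-Nd2, mt-Co1, mt-Rnr1, mt-Rnr2, mt-Nd5, mt-Nd6, mt-Tp, mt-Atp6, mt-Co2, mt-Co3, mt-Tc, mt-Nd3, mt-Atp8, mt-Tn, mt-Tl1 and mt-Nd4l. In control MII the leading pair changed places, with mt-Cytb ahead of mt-Nd1, and the order was the same from mt-Nd4 to mt-Co3, followed by mt-Nd3, mt-Tc, mt-Atp8, mt-Nd4l, mt-Tn and mt-Tl1. mt-Cytb stood at 5921 and 8010.3 RPKM in knockout MII, 15594 and 16528 in control MII, 344 and 641 in knockout GV, and 953 and 177 in control GV. mt-Nd1 stood at 6809.5 and 10548 RPKM in knockout MII, 13139.6 and 15882 in control MII, 857 and 1200.6 in knockout GV, and 1465 and 269 in control GV. The ranges of the leading pair overlapped in both MII groups. Within each library, however, mt-Cytb stood above mt-Nd1 in control MII and below it in knockout MII. The order of the pair was not tested.

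Of 18 neighbours in this order, 9 overlapped in knockout MII, 4 in control MII, 12 in knockout GV and 16 in control GV. Such overlap also depends on how far the total mitochondrial level differs between the 2 libraries of a group. In both control GV libraries mt-Nd1 stood above mt-Cytb and mt-Cytb above mt-Nd4, though these neighbours overlapped. For most neighbours the order within libraries was not assessed. In control MII the overlapping neighbours were mt-Cytb and mt-Nd1, mt-Atp6 and mt-Co2, mt-Nd4l and mt-Tn, and mt-Tn and mt-Tl1. In GV oocytes of both genotypes mt-Nd1, mt-Cytb, mt-Nd4 and mt-Co1 led, with mean levels of 1029, 492, 329.8 and 276 RPKM in knockout GV and 867, 565, 354 and 215 RPKM in control GV. The rRNAs, whose mature forms are among the most abundant RNAs of mitochondria in general, stood behind 4 or more mRNAs in each group. The labels do not say whether RNA was selected by its poly(A) tail or depleted of rRNA.

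**Figure D2:**
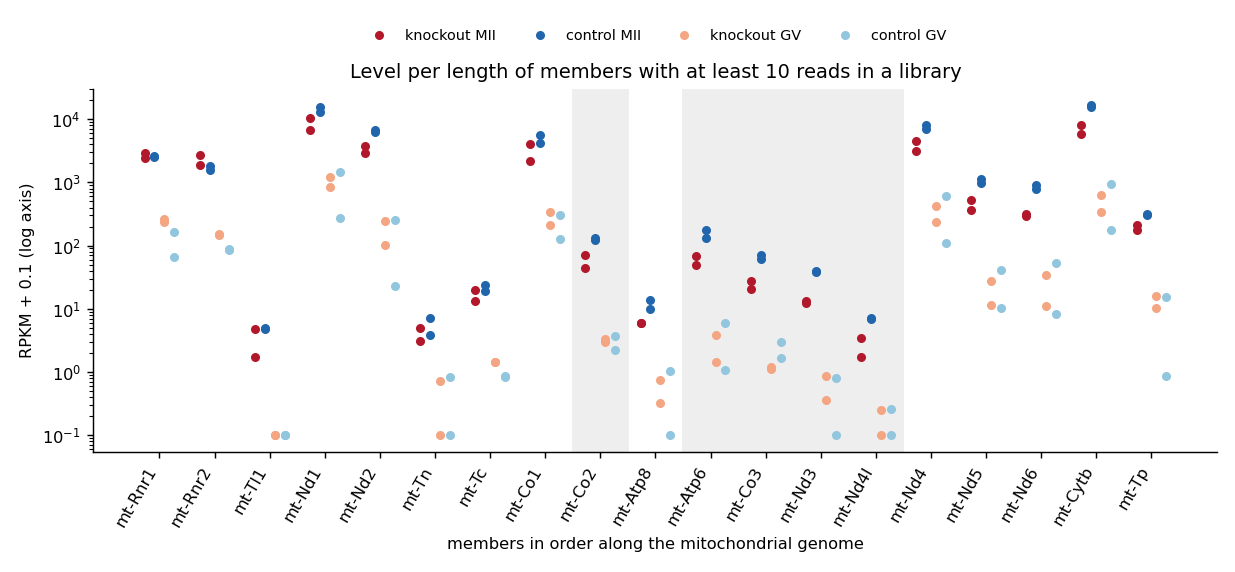
Level per length of the 19 members with at least 10 reads in a library, in RPKM with 0.1 added, on a log axis, in order along the mitochondrial chromosome. Points are libraries coloured by group, and grey bands mark mRNAs of which at least 95% of windows also occur in a nuclear transcript; the MII points lie above the GV points for each member shown.

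Most tRNAs were barely sampled. No read fell on 7 of the 22 in any library, and only mt-Tl1, mt-Tn, mt-Tc and mt-Tp reached 10 reads in a library. mt-Tp, the proline tRNA, had 387 and 408 reads in knockout MII, 542 and 601 in control MII, 24 and 15 in knockout GV, and 21 and 1 in control GV. mt-Tc had 29 and 38 reads in knockout MII, 32 and 47 in control MII, 2 and 2 in knockout GV, and 1 and 1 in control GV. Among the others the largest value was 15 reads, for mt-Tn, the asparagine tRNA, in control MII library b. A count of 0 allows up to 3 reads, or between 0.0901 and 0.153 CPM depending on the library, counting error only.

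The rise between GV and MII was tested in the fit over all 15572 genes that passed the filter, 17 members among them: the 13 mRNAs, both rRNAs, mt-Tc and mt-Tp. In control oocytes all 17 rose (edgeR quasi-likelihood test, Benjamini-Hochberg adjusted p from 2.47e-05 to 0.0249), where 21.2% of all tested genes rose and 27.9% fell, 49.1% in all. In knockout oocytes 16 of 17 rose, where 19.9% of all tested genes rose and 29.1% fell, 49% in all, and the exception was mt-Atp8 (log2 fold change 3.66 ± 1.43 SE, edgeR adjusted p 0.0559). A filter that needs reads in only some libraries admits a gene through its MII libraries, which applies to mt-Atp8, mt-Nd3, mt-Nd4l, mt-Tc and mt-Tp. The other 12 members had at least 10 reads in every library, and all 12 rose in both genotypes. In each of the 12 every MII library lay above every GV library of its genotype, which held for 33.3% of all tested genes in knockout and 34.8% in control oocytes. Their log2 fold changes ran from 3.04 to 4.56 in knockout and from 4.13 to 5.60 in control oocytes, while the median over all tested genes was -0.33 in knockout and -0.20 in control.

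**Figure D3:**
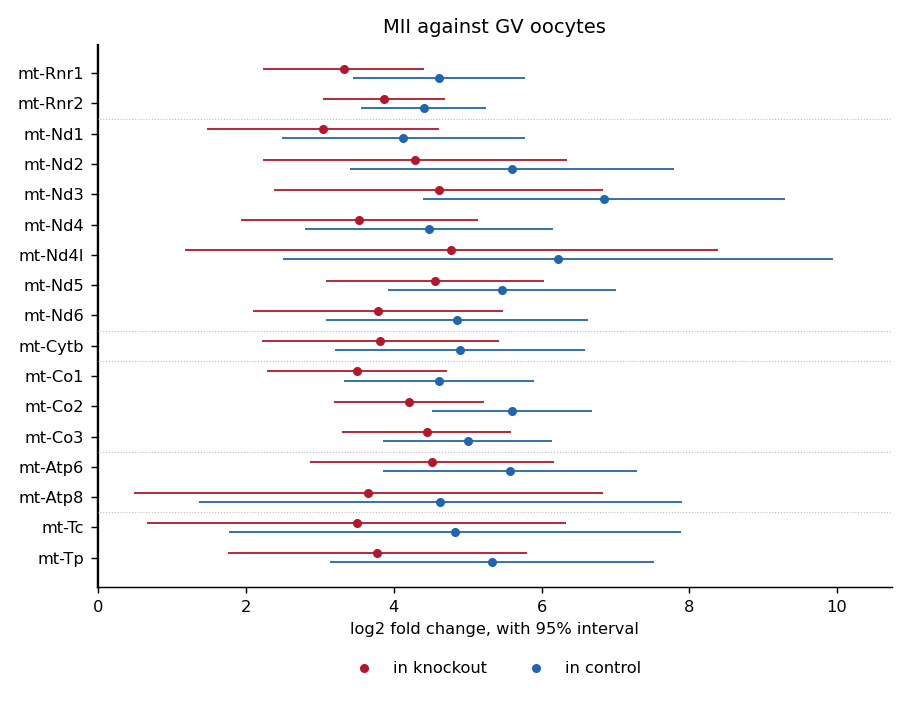
Log2 fold changes of MII over GV oocytes for the 17 tested members, in knockout (red) and control (blue) oocytes, with 95% intervals as lines. Dotted lines separate rRNAs, complex I, complex III, complex IV, ATP synthase and tRNAs; each estimate lies above 3, and the control estimate is the higher of the pair for each member.

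The values below are CPM scaled by the trimmed mean of M values (TMM), the scale of this fit. The small-subunit rRNA mt-Rnr1 had 2331 and 3033 CPM in knockout MII, 2444 and 2489 in control MII, 324 and 212 in knockout GV, and 150.3 and 51.6 in control GV. Its log2 fold change from GV to MII was 3.32 ± 0.49 in knockout (edgeR adjusted p 0.000377) and 4.61 ± 0.52 in control oocytes (edgeR adjusted p 8.84e-05). The large-subunit rRNA mt-Rnr2 had 2993 and 4713 CPM in knockout MII, 2467 and 2809 in control MII, 310.3 and 217 in knockout GV, and 137 and 112 in control GV. Every MII library lay above every GV library for both rRNAs, and on the log2 scale the MII groups differed less from each other than the GV groups did. mt-Rnr2 rose by a log2 fold change of 3.87 ± 0.37 in knockout (edgeR adjusted p 2.99e-05) and 4.41 ± 0.38 in control oocytes (edgeR adjusted p 2.47e-05).

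Among the complex I mRNAs, mt-Nd1 had 6462 and 10992 CPM in knockout MII, 12578 and 14934 in control MII, 1054 and 1063 in knockout GV, and 1361 and 211 in control GV. It showed the smallest rise of the 12, by 3.04 ± 0.71 in knockout (edgeR adjusted p 0.00521) and 4.13 ± 0.74 in control oocytes (edgeR adjusted p 0.00124), both log2. mt-Nd2 had 2990.5 and 4240.1 CPM in knockout MII, 6584 and 6791 in control MII, 135 and 236 in knockout GV, and 257 and 19.3 in control GV. Its control GV libraries differed by more than its knockout GV libraries, and its rise was 4.29 ± 0.93 in knockout and 5.60 ± 0.99 in control oocytes (log2, edgeR adjusted p 0.00355 and 0.00111). mt-Nd4 had 4286 and 6797 CPM in knockout MII, 9555 and 11065 in control MII, 416 and 541 in knockout GV, and 803 and 122 in control GV. mt-Nd5 had 662 and 1032 CPM in knockout MII, 1802 and 2009.9 in control MII, 26.3 and 45.7 in knockout GV, and 71.2 and 15.2 in control GV. For both genes the 4 MII libraries stood above the 4 GV libraries, and control GV library 2 was the lowest of all.

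mt-Nd6, the mRNA encoded on the minus strand, had 148 and 178 CPM in knockout MII, 402 and 463 in control MII, 7.25 and 16.3 in knockout GV, and 26.5 and 3.44 in control GV. It rose by 3.79 ± 0.76 in knockout and 4.86 ± 0.80 in control oocytes (log2, edgeR adjusted p 0.00234 and 0.000737), within the range of the plus-strand members. mt-Nd6 lies opposite the end of mt-Nd5, with which it shares 14 bases. The labels do not say whether the counting used the strand of the reads. If it did not, reads of both strands cannot be told apart here. Reads of mt-Nd6 per 100 reads of mt-Nd5 were 22.4 and 17.3 in knockout MII, 22.3 and 23.0 in control MII, 27.6 and 35.6 in knockout GV, and 37.2 and 22.6 in control GV. Both GV groups lay above knockout MII in this ratio, knockout GV also lay above control MII, and the other pairs of groups overlapped.

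mt-Nd3 and mt-Nd4l, the small complex I mRNAs inside the chromosome 1 copy, were low. mt-Nd3 had 4.23 and 5.06 CPM in knockout MII, 13.4 and 13.7 in control MII, 0.113 and 0.248 in knockout GV, and 0.232 and 0 in control GV. mt-Nd4l had 0.983 and 0.528 CPM in knockout MII, 2.04 and 2.05 in control MII, 0 and 0.0413 in knockout GV, and 0.0464 and 0 in control GV. These GV values rest on 6 reads or fewer per library, and their folds are of uncertain size.

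mt-Cytb, the only complex III subunit encoded in mitochondria, had 6717 and 9979 CPM in knockout MII, 17844 and 18579 in control MII, 506 and 678 in knockout GV, and 1058 and 166 in control GV. Its rise was 3.82 ± 0.72 in knockout (edgeR adjusted p 0.00165) and 4.90 ± 0.76 in control oocytes (edgeR adjusted p 0.000529), log2. The complex IV mRNA mt-Co1 had 3346 and 6882 CPM in knockout MII, 6380.2 and 8659.7 in control MII, 413 and 491 in knockout GV, and 457 and 159.7 in control GV. It rose by 3.50 ± 0.55 in knockout and 4.61 ± 0.58 in control oocytes (log2, edgeR adjusted p 0.000537 and 0.000157). mt-Co1 was the complex IV member whose MII groups overlapped.

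mt-Co2 had 30.3 and 52.8 CPM in knockout MII, 82.8 and 88.6 in control MII, 2.49 and 2.02 in knockout GV, and 2.37 and 1.17 in control GV. mt-Co3, another complex IV subunit, had 16.0 and 23.3 CPM in knockout MII, 48.8 and 54.6 in control MII, 1.02 and 0.785 in knockout GV, and 2.23 and 1.01 in control GV. Both rose in both genotypes, mt-Co2 by 4.20 ± 0.46 in knockout and 5.60 ± 0.49 in control oocytes (log2, edgeR adjusted p 6.23e-05 and 2.48e-05). With the reads of the nuclear copies added to mt-Co2, an alternative chosen after seeing the data, the rise was 5.04 in knockout and 5.23 in control oocytes. The ATP synthase mRNA mt-Atp6 had 32.9 and 49.7 CPM in knockout MII, 89.4 and 119 in control MII, 1.19 and 2.35 in knockout GV, and 3.85 and 0.545 in control GV. Its rise of 4.52 ± 0.74 in knockout and 5.57 ± 0.77 in control oocytes became 6.00 and 7.72 with the reads of its nuclear copy added. mt-Atp8 had 1.16 and 1.28 CPM in knockout MII, 2.00 and 2.74 in control MII, 0.0566 and 0.124 in knockout GV, and 0.186 and 0 in control GV.

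The size of the rise in control oocytes depended on which control GV library was used, since they differed so widely. Over the 12 members with at least 10 reads in every library, the log2 fold changes in control ran from 4.55 to 8.42 without control GV library 1 and from 3.32 to 5.16 without control GV library 2, and all 12 rose in both cases. In knockout oocytes the range was 2.61 to 4.20 without knockout MII library 2 and 3.31 to 4.78 without knockout MII library 1, again with all 12 rising. Without knockout GV library 1 it was 2.99 to 4.59 and without library 2 it was 3.03 to 5.09.

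At MII, knockout oocytes held less mitochondrial mRNA than controls in nearly every comparison of libraries, but no member passed the test. Of 17 members, 0 were called lower and 0 higher by edgeR's quasi-likelihood test, where 5.14% of all tested genes were called, 3.44% lower and 1.7% higher. At an unadjusted p below 0.05 there were 2, mt-Co2 and mt-Co3, where 22.2% of all tested genes lay below it. DESeq2 called 1 lower, mt-Co3, where it called 1108 of 15572 genes lower. Without the filter on low counts edgeR called 4 of 30 members lower, where it called 1230 of 25203 genes lower. All 13 mRNAs had negative log2 fold changes, from -0.56 for mt-Co1 to -1.55 for mt-Nd3, with a median of -1.13 against -0.01 over all tested genes. In 12 of the 13 both knockout libraries lay below both control libraries, which held for 24.7% of all tested genes; in mt-Co1 they overlapped. The mRNAs are cut from shared precursors and counted in the same 4 libraries, so these 13 values are not independent of each other.

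By complex, the 7 complex I mRNAs ran from -0.66 ± 0.66 for mt-Nd1 to -1.55 ± 0.82 for mt-Nd3, and the intervals of all 7 included 0. mt-Cytb stood at -1.13 ± 0.66 (95% interval -2.58 to 0.33). mt-Co3 stood at -1.40 ± 0.44 (95% interval -2.36 to -0.43, edgeR adjusted p 0.0975) and mt-Co2 at -1.04 ± 0.39 (95% interval -1.92 to -0.17, edgeR adjusted p 0.155). With the nuclear copies' reads added, mt-Co2 came to -0.45 (edgeR adjusted p 0.556) and mt-Co3 to -1.31 (edgeR adjusted p 0.170). For mt-Co2 the added reads thus moved the value by over 1.5 times. They came from the identical copy Gm28661 and from Gm13341 on chromosome 2, which is 95.9% identical to mt-Co2. The ATP synthase mRNAs mt-Atp6 and mt-Atp8 stood at -1.34 ± 0.63 and -0.95 ± 1.22. mt-Tp and mt-Tc stood at -0.60 ± 0.80 and -0.28 ± 1.10.

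The rRNAs did not share this direction at MII. mt-Rnr1 differed by 0.12 ± 0.45 (95% interval -0.88 to 1.12) and its libraries overlapped. mt-Rnr2 differed by 0.55 ± 0.33 (95% interval -0.19 to 1.28, edgeR adjusted p 0.372), with both knockout libraries above both control libraries, which held for 21.7% of all tested genes. Without knockout MII library 2, mt-Rnr1 stood at -0.01 and mt-Rnr2 at 0.25, and without library 1 at 0.31 and 0.85. The median of the mRNAs was -1.37 without knockout MII library 2 and -0.88 without library 1, with all 13 negative both times and 0 called. With control MII library b left out, the library with the highest sum of blood and immune markers, it was -1.03.

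**Figure D4:**
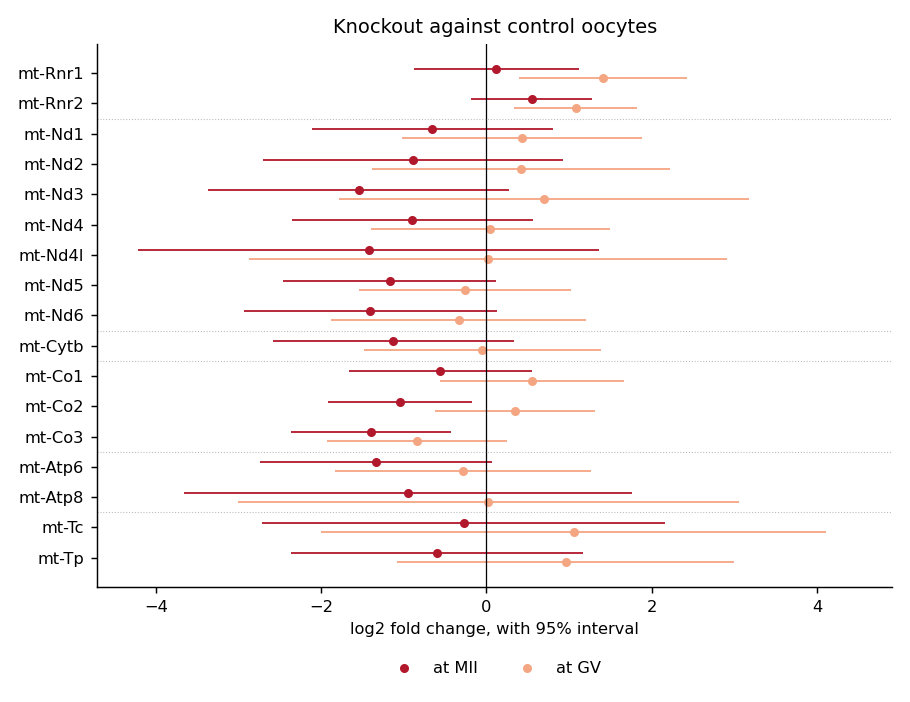
Log2 fold changes of knockout over control oocytes for the 17 tested members at MII (dark) and GV (light), with 95% intervals as lines. At MII the 13 mRNAs lie between -1.55 and -0.56 and the rRNAs at 0.12 and 0.55; at GV the rRNAs lie at 1.41 and 1.08 and the mRNAs on both sides of 0.

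At GV, both rRNAs were higher in every knockout library than in every control library, but again no member passed the test. edgeR called 0 of 17 members higher and 0 lower, where 0.989% of all tested genes were called, 0.597% higher and 0.392% lower. DESeq2 also called 0, where it called 304 genes higher and 222 lower of 15572. The 2 members with an unadjusted p below 0.05 were the rRNAs; 2 of 17 is near the 10.8% of all tested genes below it. mt-Rnr1 stood at 1.41 ± 0.46 (95% interval 0.39 to 2.43, edgeR adjusted p 0.242) and mt-Rnr2 at 1.08 ± 0.33 (95% interval 0.34 to 1.83, edgeR adjusted p 0.217), both log2 of knockout over control. Both knockout libraries lay above both control libraries for each rRNA, and for mt-Tc on 2 reads or fewer per library. These are 3 of 17 members, no larger a share than the 22.6% of all tested genes for which this held. Without control GV library 1 the values of mt-Rnr1 and mt-Rnr2 were 2.38 and 1.24, and without control GV library 2 they were 0.84 and 0.94.

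For the mRNAs at GV no direction could be given. Of 13, 8 had positive and 5 negative log2 fold changes, from -0.84 ± 0.49 for mt-Co3 to 0.70 ± 1.12 for mt-Nd3, and in none did the groups stand apart. Without control GV library 1, 12 of the 13 were positive (median 1.84), and without control GV library 2 all 13 were negative (median -0.84). The sign of the mRNA difference at GV therefore rested on which control library was kept.

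The knockout effect at MII was set against that at GV by a term of the same fit. All 17 members had negative values with all libraries, that is, a lower knockout-over-control ratio at MII than at GV, but edgeR called 0, where it called 0.0835% of all tested genes, 0.0771% lower and 0.00642% higher. At an unadjusted p below 0.05 there was 1, mt-Co2 (-1.40 ± 0.59, edgeR adjusted p 0.405), where 11.5% of all tested genes lay below it. DESeq2 called 0, where it called 104 genes higher and 239 lower of 15572. With the nuclear copies' reads added, mt-Co2 stood at -0.19 (edgeR adjusted p 0.969) and mt-Co3 turned to 0.35, against -0.55 without them. The median of the mRNAs, -1.08 with all libraries, was -2.98 when control GV library 1 was left out and -0.29 when library 2 was. mt-Rnr1 stood at -1.29 ± 0.64 (95% interval -2.71 to 0.13) and mt-Cytb at -1.08 ± 0.92 (95% interval -3.12 to 0.96), against a median of -0.14 over all tested genes. The rise at maturation was thus not shown to differ between the genotypes.

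Ratios within the mitochondrial reads do not depend on the scaling of the libraries. There were 21.6 and 19.3 rRNA reads per 100 mRNA reads in knockout MII, 8.87 and 8.44 in control MII, 24.8 and 14.0 in knockout GV, and 7.11 and 23.3 in control GV. The 2 knockout MII libraries lay above the 2 control MII libraries, and the GV groups overlapped, since the control GV libraries spanned nearly the whole range. With 2 libraries against 2, the smallest p that an exact permutation test could give is 0.333, so that test could not pass 0.05, and no other test of the ratio was made. mt-Cytb reads per mt-Nd1 read were 1.04 and 0.908 in knockout MII, 1.42 and 1.24 in control MII, 0.480 and 0.638 in knockout GV, and 0.777 and 0.787 in control GV. These 4 groups did not overlap, knockout lying below control at each stage and GV below MII in each genotype. mt-Nd1 lies near the start of the plus-strand transcript and mt-Cytb at its end, and neither shares a window with a nuclear transcript. mt-Rnr2 reads per mt-Rnr1 read were 1.28 and 1.55 in knockout MII, 1.01 and 1.13 in control MII, 0.958 and 1.02 in knockout GV, and 0.912 and 2.17 in control GV, so control GV library 2 again stood apart.

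**Figure D5:**
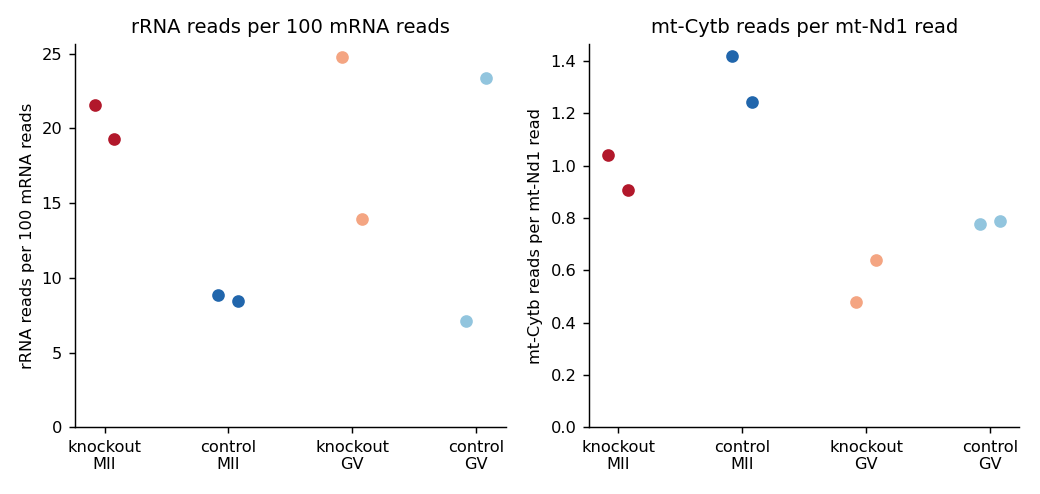
rRNA reads per 100 mRNA reads (left) and mt-Cytb reads per mt-Nd1 read (right), on axes that start at 0. Points are libraries; knockout MII (21.6 and 19.3) lies above control MII (8.87 and 8.44) on the left, and the 4 groups do not overlap on the right.

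Most nuclear genes for mitochondrial ribosomal proteins fell during maturation, where 29.1% of all tested genes fell in knockout and 27.9% in control oocytes; the other lists of nuclear genes were more mixed. Of 76 tested mitochondrial ribosomal proteins, which join the 2 rRNAs in the mitochondrial ribosome, 58 fell and 3 rose from GV to MII in knockout oocytes, and 57 fell and 3 rose in control oocytes (edgeR quasi-likelihood test, adjusted p below 0.05). Their median log2 fold change was -3.21 in knockout and -3.13 in control oocytes, against -0.33 and -0.20 over all tested genes. Mrpl28, a large-subunit protein, had 1.15 ± 0.233 CPM in knockout MII, 0.735 ± 0.550 in control MII, 93.6 ± 17.4 in knockout GV and 109 ± 6.40 in control GV (mean ± SD, n = 2 each). Mrpl48 had 18.5 ± 4.04 CPM in knockout MII, 15.0 ± 0.226 in control MII, 518 ± 257 in knockout GV and 420.0 ± 46.4 in control GV. Both fell well beyond the spread between libraries.

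Of 18 tested genes of mitochondrial DNA transcription and replication, 8 fell and 2 rose in knockout oocytes and 7 fell and 4 rose in control oocytes. Their medians were -1.47 and -2.01, against -0.33 and -0.20 over all tested genes. The share that fell was 44.4% in knockout and 38.9% in control oocytes, against 29.1% and 27.9% of all tested genes. The share that rose was 11.1% and 22.2%, against 19.9% and 21.2%, so the rises were not above the background by much in either genotype. Polrmt, the mitochondrial RNA polymerase, had 0.697 ± 0.776 CPM in knockout MII, 2.32 ± 0.424 in control MII, 60.2 ± 15.7 in knockout GV and 87.6 ± 16.5 in control GV. It fell by 6.47 ± 0.74 in knockout (edgeR adjusted p 8.84e-05) and by 5.24 ± 0.69 in control oocytes (edgeR adjusted p 0.000196), on the log2 scale. Tfam, which packages mitochondrial DNA and starts its transcription, had 0.619 ± 0.833 CPM in knockout MII, 1.39 ± 0.150 in control MII, 10.98 ± 5.44 in knockout GV and 10.9 ± 1.73 in control GV. It fell in both genotypes as well (edgeR adjusted p 0.0109 in knockout and 0.0372 in control). Dna2, a nuclease and helicase that also acts in the nucleus, rose to 42.2 ± 8.63 CPM in knockout MII and 51.7 ± 3.96 in control MII, against 8.08 ± 0.847 in knockout GV and 3.98 ± 0.0546 in control GV.

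Of 28 tested genes of mitochondrial RNA processing, polyadenylation and decay, 12 fell and 6 rose in knockout oocytes and 11 fell and 5 rose in control oocytes. Over all tested genes 29.1% fell and 19.9% rose in knockout and 27.9% fell and 21.2% rose in control oocytes, so the rises in this list were near the background. Lrpprc, which binds mitochondrial mRNAs and keeps them stable, had 2.84 ± 0.540 CPM in knockout MII, 0.965 ± 0.757 in control MII, 53.6 ± 5.36 in knockout GV and 68.9 ± 17.1 in control GV. It fell by 4.24 ± 0.52 in knockout and by 6.17 ± 0.58 in control oocytes on the log2 scale (edgeR adjusted p 0.00013 and 3.72e-05). Among the genes that rose in knockout oocytes, Rexo2, which degrades short RNA fragments in mitochondria, had 154 ± 5.82 CPM in knockout MII, 102 ± 1.28 in control MII, 29.1 ± 1.90 in knockout GV and 22.8 ± 7.70 in control GV. Of 16 tested mitochondrial aminoacyl-tRNA synthetases, which load the tRNAs, 8 fell and 3 rose in knockout and 7 fell and 2 rose in control oocytes. Of 6 tested upstream regulators, 2 fell and 1 rose in knockout oocytes and 1 fell and 2 rose in control oocytes, and Nrf1, which activates many nuclear genes for mitochondria, fell in both by 2.69 ± 0.39 and 2.43 ± 0.39 (log2).

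Between knockout and control, few genes of these lists passed the test. At MII, where 3.44% of all tested genes were called lower, 2 of the 16 synthetases were called lower and 0 higher. Lars2, the leucyl-tRNA synthetase, had 29.1 ± 10.1 CPM in knockout MII and 127 ± 57.0 in control MII (log2 fold change -2.12 ± 0.41, edgeR adjusted p 0.0188). Vars2, the valyl-tRNA synthetase, had 8.83 ± 3.78 CPM in knockout MII and 32.0 ± 1.57 in control MII (-1.85 ± 0.42, edgeR adjusted p 0.0338). Of the 76 ribosomal proteins 7 were called lower and 1 higher at MII, with Mrpl36, Mrpl46 and Mrpl33 having the lowest p. Mrpl46 had 0.263 ± 0.162 CPM in knockout MII and 2.05 ± 0.0941 in control MII. Mrpl33 had no read in knockout MII and 17 and 13 reads in control MII. Its control MII mean stood 5.62-fold above a floor of 3 counts per knockout library. These levels at MII are a small part of those at GV, where Mrpl46 had 38.6 ± 8.72 CPM in knockout and 42.4 ± 2.19 in control oocytes.

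By edgeR, 0 of the transcription and replication genes, RNA processing genes and upstream regulators were called between knockout and control at either stage. At an unadjusted p below 0.05 there were 3 of 18, 5 of 28 and 2 of 6 at MII, where 22.2% of all tested genes lay below it, and 3, 1 and 1 at GV, where 10.8% did. DESeq2 called 0 transcription and replication genes, 3 RNA processing genes (1 higher, 2 lower) and 2 upstream regulators (both lower) at MII, and 0 at GV. Over all 15572 genes DESeq2 called 643 higher and 1108 lower at MII, and 304 higher and 222 lower at GV. Polrmt at MII stood at -1.77 ± 0.67 (unadjusted p 0.0235, edgeR adjusted p 0.154), Tfam at -1.19 ± 1.03 (edgeR adjusted p 0.555) and Lrpprc at 1.57 ± 0.51 (edgeR adjusted p 0.109). Gabpa, a factor that activates Tfam, had no read in knockout MII and 11 and 48 reads in control MII (edgeR adjusted p 0.0548). Its control MII mean stood 10.5-fold above a floor of 3 counts per knockout library, but the 2 control libraries differed widely. At GV 1 of 76 tested ribosomal proteins was called, near the 0.989% of all tested genes called there. It was Mrps23, with 21.0 ± 1.94 CPM in knockout GV and 71.6 ± 0.677 in control GV (-1.77 ± 0.30, edgeR adjusted p 0.0237).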

How the data were processed

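RNA-seq read counts of 8 mouse oocyte libraries were used. Per the submitters' processing notes, the authors aligned reads to mm10 with Bowtie2 and counted them with HTSeq; they also name edgeR. The labels give no versions, annotation release, strand setting or filters. The deposited counts are whole numbers per Ensembl gene, without normalization. The 5 summary entries, which name no gene, hold 22.0% to 35.1% of reads and were left out of library sizes. Per the file headers, the same control MII name stands over 2 columns; each was taken as a control MII library (a, b) without a replicate number. GENCODE M21 placed 54809 identifiers.

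The model was edgeR 4.0.16 under R 4.3.3 (filterByExpr, TMM, quasi-likelihood F-test, two-sided, 1 term per group, all 8 libraries), and p-values were Benjamini-Hochberg adjusted over the 15572 genes tested, with calls at an adjusted p below 0.05. SE is the log2 fold change divided by the square root of F, and 95% intervals use a t quantile of 2.22. The code was tested on simulated data. Of genes simulated with an absolute log2 fold change of 1 between genotypes, 4.48% were recovered at MII and 2.99% at GV. For the difference between stages it was 1.49%. At an absolute log2 fold change of 2 the shares were 58.2%, 71.6% and 40.3%. A count of 0 therefore does not show that changes of about 1 were absent. Markers are in CPM of reads in genes without TMM scaling, as is RPKM. Depth ran from 19587421 to 33289150 reads in genes, and floors are 3 counts. Alternatives were library totals, TMM without the members, no filter, a mean of at least 5 CPM, DESeq2 1.42.0, leaving out each library, a replicate block and adding reads of nuclear copies. The members, gene lists and named genes (all members; for nuclear lists the called genes with the lowest p, up to 3, plus Tfam, Polrmt and Lrpprc) were chosen with earlier results of these data known. A gene that this rule names is not reported here.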

Additional observations from a re-analysis of the deposited data

How the results depend on the processing

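No member's value turned its sign and passed the threshold under an alternative, but 38 values that did not pass turned, 33 of them differences at GV. At GV, scaling by library totals gave -0.12 for mt-Atp8, -0.11 for mt-Nd4l and -0.10 for mt-Nd4, DESeq2 gave -0.0556 for mt-Atp8 and -0.0223 for mt-Nd4, and a mean of at least 5 CPM gave -0.00856 for mt-Nd4. Adding nuclear copies gave -0.25 for mt-Co2, -0.32 for mt-Nd3 and -1.42 for mt-Nd4l at GV, and 0.35 for mt-Co3 in the difference between stages. The replicate block gave 0.13 for mt-Atp6, 0.0594 for mt-Nd5, 0.14 for mt-Nd6 and 0.47 for mt-Cytb at GV. Leaving out each library, the GV differences that turned ran from -0.36 to 2.33 (mt-Nd1), -0.48 to 3.26 (mt-Nd2), -0.0143 to 1.504 (mt-Co1), -0.0721 to 0.94 (mt-Co2), -0.97 to 4.34 (mt-Atp8), -1.10 to 1.71 (mt-Atp6), -0.32 to 5.31 (mt-Nd3), -2.49 to 2.53 (mt-Nd4l), -0.75 to 1.97 (mt-Nd4), -0.98 to 1.25 (mt-Nd5), -1.16 to 1.78 (mt-Nd6) and -0.84 to 1.84 (mt-Cytb). At MII they ran from -0.00786 to 0.31 (mt-Rnr1) and -0.61 to 0.0518 (mt-Tc), and between stages from -5.30 to 0.0205 (mt-Atp8) and -3.95 to 1.07 (mt-Nd4l). At GV the count of members higher in knockout was 2 of 30 tested without a filter on low counts. It was 2 of 13 with a replicate block over the GV libraries, mt-Rnr1 and mt-Rnr2 each time, against 0 with all libraries and no block. Over all genes, 336 of 25203 were called higher without the filter and 785 of 13992 with the block. At MII the count lower in knockout was 4 of 30 tested without a filter (mt-Atp6, mt-Nd5, mt-Nd6 and mt-Cytb) and 1 of 17 with DESeq2 (mt-Co3). There, 1230 of 25203 genes were called lower without a filter and 1108 of 15572 with DESeq2. The cause of these shifts was not tested. Leaving out each library in turn, 13 to 15 members rose in knockout and 14 to 17 in control maturation, the losses being among mt-Atp8, mt-Nd4l, mt-Tc and mt-Tp, and 0 were called between genotypes. A mean of at least 5 CPM left 13 members, all of which rose in both genotypes. With the summary entries in the denominator, the share of all members was 4.81% in control MII and 0.213% in knockout GV.

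The replicate block used numbers that the GV groups, and the knockout groups, share; same-numbered libraries deviated together with correlations of 0.119 and -0.0200, and 2 pairs do not show a pairing. Over all genes at GV the block called 785 higher and 737 lower, against 345 and 357 in the same libraries without it; in knockout maturation 14 members rose with it. Counts over all genes were 93 higher and 61 lower at GV and 265 and 535 at MII in the main fit. They also moved by over 1.5 times without the filter (336 and 191 at GV, 599 and 1230 at MII). With DESeq2 they were 304 and 222 at GV and 643 and 1108 at MII. Leaving out any GV library, or some of the MII libraries, likewise moved a count by over 1.5 times. Scaling by library totals shifted the median of all genes at GV to -0.27.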
